A study of Homo sapiens with 2 samples.

Results

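The genes described here are 10 components of the insulin-like growth factor (IGF) axis: the ligand IGF2, the receptors IGF1R, IGF2R and INSR, the adaptors IRS1 and IRS2, and the binding proteins IGFBP1, IGFBP3, IGFBP4 and IGFBP6. They were taken by symbol from the tables of both libraries, and all 10 had a row in each, of 13219 genes listed in at least 1 table. The study compared human breast cells of a line labelled 231, a name in common use for the breast cancer line MDA-MB-231, after transfection against YBX1 (siYBX1) or with a control (siNC). YB-1, the product of YBX1, is a cold shock domain protein that binds nucleic acids. The treatment protocol speaks of an siRNA and the design text of a Smart Silencer. Both groups were of the same line, cultured in L15 medium with 10% FBS and taken 48 h after transfection, and each had 1 library. Without replicates, none of the differences can be tested. The 10 genes were chosen by their FPKM values in these same libraries, in which IGF2, IGFBP1 and IGFBP3 were known to be among the most reduced genes, so the values below describe the libraries and test nothing.

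IGF2 is a secreted growth factor that signals through the tyrosine kinase receptors encoded by IGF1R and INSR, while the IGF2 receptor has no kinase and carries its ligand to the lysosome. The activated receptors phosphorylate IRS1 and IRS2, which recruit PI3-kinase and start the AKT and RAS-MAPK cascades. The IGF binding proteins hold IGFs in the extracellular fluid, and proteases release them again. In breast cancer cells the axis is known for its part in growth and survival, and FBS brings IGFs of its own into the culture.

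The values are FPKM, fragments scaled to transcript length and to library size. There were 11678 genes in the siYBX1 table and 13017 genes in that of siNC, and no counts came with them, so the depth of each library is unknown. YBX1 itself stood at 38.1 FPKM in siYBX1 against 649 FPKM in siNC. All 8 mesenchymal markers of such lines were listed in both libraries, with VIM at 250 against 201 FPKM and AXL at 306 against 218 FPKM. Of these markers ZEB1 was lower in siYBX1, at 4.74 against 15.1 FPKM, and FN1 stood at 27.3 against 52.8 FPKM. Of 10 luminal and epithelial genes, 6 were listed in both libraries, among them KRT19 at 83.0 against 153 FPKM, KRT18 at 57.2 against 64.2 FPKM, EPCAM at 5.10 against 8.22 FPKM and KRT8, which was lower, at 27.7 against 74.7 FPKM. The hormone receptor genes ESR1 and PGR had no row in either table, and CDH1 and FOXA1 were listed only in the siNC table, at 0.0668 and 0.164 FPKM. Differences are given as log2(FPKM + 1) in siYBX1 minus siNC, which understates the differences of low genes. The call as higher or lower starts at a difference of 1, which is 2-fold on this scale. Statements that genes lay within or passed 2-fold use this scale, while fold values and ratios given in the text are those of plain FPKM. Of 10548 genes listed in both tables whose mean reached 1 FPKM, 7.20% were higher and 5.62% lower, and the median difference was 0.02. After scaling to the same total, the split of 759 higher and 593 lower genes became 570 and 822, and the median difference became -0.10.

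All 10 IGF axis genes passed the filter. The growth factor gene IGF2 and the binding protein genes IGFBP1 and IGFBP3 were lower in the siYBX1 library, and the binding protein gene IGFBP4 was higher. The other 6 lay within 2-fold on the log2(FPKM + 1) scale, though IRS1 was 2.04-fold lower in plain FPKM. The 10 genes were chosen with these differences known, so the count of 3 lower and 1 higher is not read against the background shares. Their median difference was 0.13, and the individual values ran from -2.57 to 1.24. The median has no stable direction: it was 0.01 after scaling to the same total and -0.33 for the 8 members with a mean of at least 5 FPKM.

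IGF2 (ENSG00000167244.18_4) was the only one of the 2 IGF ligands with a row in the tables. It stood at 0.823 FPKM in siYBX1 and at 9.79 FPKM in siNC, an 11.9-fold lower level. The siNC value was above the median gene of its table, with 69.2% of the listed genes at or below it, and the siYBX1 value was near the bottom of its own, with 7.71% at or below. The siNC table lists more genes of low level, so such percentages are not on the same scale in both libraries. SOCS2, at 0.840 FPKM in siNC, had 17.4% of the genes listed there at or below it. The log2 difference of -2.57 had rank 7 from the lowest of the 10548 compared genes. At so low a level the pseudocount sets the size of this difference, which was -3.42 with a pseudocount of 0.1 and -1.34 with one of 5. IGF1, INS and the read-through gene INS-IGF2, which spans IGF2, had no row in either table, nor had H19, the non-coding neighbour that shares the imprinted region of IGF2. In the GENCODE 29 annotation no gene with a row in the tables overlaps IGF2 or any of the other 9 genes.

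**Figure D1:**
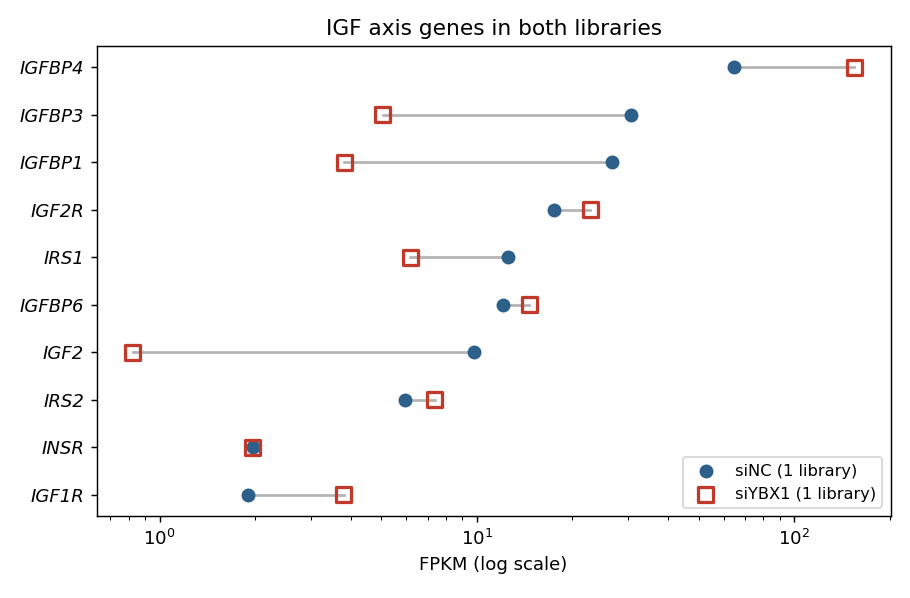
FPKM (log scale) of the 10 IGF axis genes in the siNC library (circles) and the siYBX1 library (open squares), 1 library each, joined by a line and ordered by the siNC value. IGF2, IGFBP1 and IGFBP3 lie far to the left in siYBX1, at 0.823, 3.82 and 5.05 FPKM, while IGFBP4 lies to the right at 155 FPKM and INSR coincides.

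IGFBP1 and IGFBP3 lay close together in both libraries. IGFBP1, a secreted binding protein whose gene insulin represses in liver, stood at 3.82 FPKM in siYBX1 and at 26.7 FPKM in siNC, 6.98-fold lower, with a log2 difference of -2.52 and rank 10 from the lowest. IGFBP3, the main carrier of IGFs in blood, stood at 5.05 against 30.6 FPKM, 6.07-fold lower, with a log2 difference of -2.39 and rank 13. In siNC both were among the more abundant mRNAs, with 89.0% and 91.0% of the listed genes at or below them. In siYBX1 they were below the middle of the table, with 37.4% and 45.4% at or below. Both genes are on chromosome 7, on opposite strands, with 18.6 kb between their facing ends in the GRCh38 annotation. The ratio of IGFBP3 to IGFBP1 in FPKM was 1.32 in siYBX1 and 1.15 in siNC.

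IGFBP4 and IGFBP6 did not go with them. IGFBP4, a binding protein that restrains IGF action until the protease PAPPA cleaves it, was the highest of the 10 genes in both libraries. It stood at 155 FPKM in siYBX1 and at 64.8 FPKM in siNC, 2.39-fold higher, a log2 difference of 1.24 with rank 424 from the highest. IGFBP6, which binds IGF2 in preference to IGF1, stood at 14.6 against 12.1 FPKM, a log2 difference of 0.25. The level of IGFBP4 was 30.7 times that of IGFBP3 in siYBX1 and 2.11 times in siNC.

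Seen as a family, the binding protein mRNAs differed in make-up more than in sum. The listed IGFBP genes from IGFBP1 to IGFBP7 summed to 238 FPKM over 5 genes in siYBX1 and to 255 FPKM over 7 genes in siNC. FPKM are per length, so shares of this sum are shares of transcripts and not of reads. IGFBP4 made up 65.1% of the sum in siYBX1 and 25.4% in siNC. IGFBP1 and IGFBP3 made up 1.61% and 2.12% in siYBX1 and 10.5% and 12.0% in siNC. IGFBP7, which binds IGFs only weakly, was the largest part in siNC, with 46.9%, and came to 25.0% in siYBX1. IGFBP6 held 6.16% and 4.75%. The direction of the sum rests on IGFBP7: the 4 member binding protein genes alone summed to 178 FPKM in siYBX1 and 134 FPKM in siNC. Of that smaller sum IGFBP4 made up 86.8% in siYBX1 and 48.3% in siNC.

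**Figure D2:**
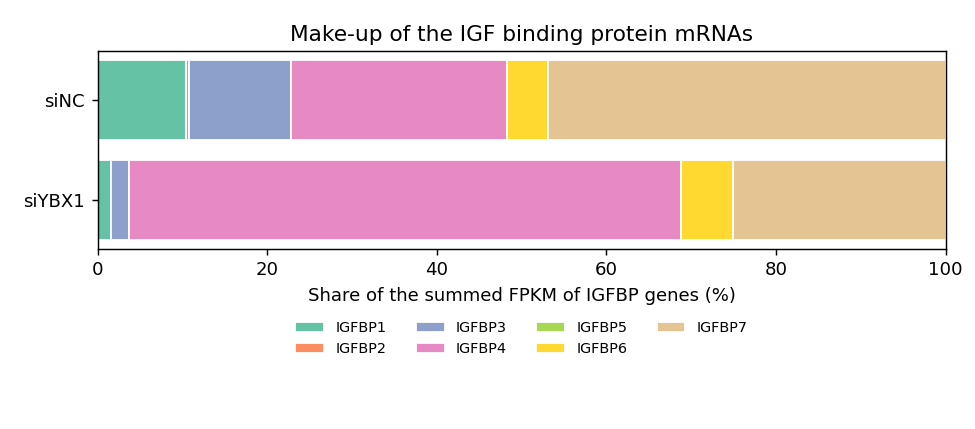
Share (%) of the summed FPKM of the listed IGFBP genes that each gene held, 1 bar per library. IGFBP4 fills 65.1% of the siYBX1 bar and 25.4% of the siNC bar, while IGFBP1 and IGFBP3 shrink to 1.61% and 2.12% in siYBX1.

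Promoter windows of 250 bases upstream of the annotated start were read for 8 of the 10 genes from RefSeq (GRCh38.p14). No window was available for IGF2 and IGFBP1, so these strongly reduced genes were not searched. They were searched on both strands for 3 short motifs: ATTGG, the core of the Y-box after which YB-1 is named, TGTTTTG, the core of the insulin response element, and TGTTTAC, a forkhead motif that FOXO factors bind. Of 35116 such windows, 32.0% held the first motif, 4.30% the second and 2.98% the third. The windows of IGFBP3 and IGFBP4 are shown because these paralogs lay on opposite sides. Any match would be in capitals, and neither window held one, which says only that these letters are not in these windows. IGFBP3 is read from chr7:45921273-45921522 (minus strand) and IGFBP4 from chr17:40443200-40443449 (plus strand), 5′ to 3′.
IGFBP3: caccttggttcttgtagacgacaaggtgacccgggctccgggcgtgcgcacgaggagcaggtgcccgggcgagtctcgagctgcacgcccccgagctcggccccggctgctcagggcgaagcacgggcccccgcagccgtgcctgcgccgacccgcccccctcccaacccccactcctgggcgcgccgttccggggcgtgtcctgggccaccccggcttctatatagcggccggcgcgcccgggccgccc
IGFBP4: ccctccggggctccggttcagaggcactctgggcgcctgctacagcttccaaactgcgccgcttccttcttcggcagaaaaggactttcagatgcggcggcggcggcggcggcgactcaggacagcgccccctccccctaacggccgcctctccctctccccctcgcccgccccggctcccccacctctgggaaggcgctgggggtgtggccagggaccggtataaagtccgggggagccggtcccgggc
The IGFBP6 window held a single forkhead match, written GTAAACA on the gene's strand, and no other motif.

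The 3 receptors showed smaller differences. IGF1R, the kinase receptor for IGFs, stood at 3.80 FPKM in siYBX1 and at 1.91 FPKM in siNC, a ratio of 1.99 in FPKM and a log2 difference of 0.72 that was short of the threshold. INSR, the insulin receptor, which also binds IGF2, stood at 1.97 against 1.96 FPKM, a log2 difference of 0.00. Its sign was negative with the libraries scaled to the same total (-0.10) and with differences centred on the median (-0.02). IGF2R stood at 22.8 against 17.6 FPKM, a log2 difference of 0.36, and was the most abundant receptor mRNA of the axis in both libraries.

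The kinase receptors were thus nearly level in siNC, while IGF1R stood above INSR in siYBX1. In FPKM, IGF1R was 1.93 times INSR in siYBX1 and 0.971 times INSR in siNC. IGF2R was 5.99 times IGF1R in siYBX1 and 9.20 times in siNC. Against its ligand, IGF2R was 27.7 times IGF2 in siYBX1 and 1.79 times in siNC.

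The insulin receptor substrates stood in opposite order in the libraries. IRS1, the docking protein that couples IGF1R to PI3-kinase, stood at 6.16 FPKM in siYBX1 and at 12.5 FPKM in siNC, a ratio of 0.491 in FPKM. Its log2 difference of -0.92 lay just within 2-fold on the log2(FPKM + 1) scale. It passed at a pseudocount of 0.1 (-1.01) and with the libraries scaled to the same total (-1.05). IRS2, its paralog, stood at 7.36 against 5.94 FPKM, a log2 difference of 0.27. IRS1 was thus 0.838 times IRS2 in siYBX1 and 2.11 times IRS2 in siNC.

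The promoter windows of this pair are shown because the order of their levels differed between the libraries, with matches to the 3 motifs in capitals. IRS1 is read from chr2:226799821-226800070 and IRS2 from chr13:109786584-109786833, both on the minus strand, 5′ to 3′ (GRCh38.p14).
IRS1: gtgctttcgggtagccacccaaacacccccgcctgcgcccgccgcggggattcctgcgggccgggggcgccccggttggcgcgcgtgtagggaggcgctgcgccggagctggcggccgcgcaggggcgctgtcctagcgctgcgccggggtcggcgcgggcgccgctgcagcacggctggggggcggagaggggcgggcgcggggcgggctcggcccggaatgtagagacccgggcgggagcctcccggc
IRS2: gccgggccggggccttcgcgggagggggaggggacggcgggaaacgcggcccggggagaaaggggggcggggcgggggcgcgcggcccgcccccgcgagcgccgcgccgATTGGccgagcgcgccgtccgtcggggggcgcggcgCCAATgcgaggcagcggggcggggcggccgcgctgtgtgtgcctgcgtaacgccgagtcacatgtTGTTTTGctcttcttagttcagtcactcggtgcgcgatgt
The IRS2 window held ATTGG once on each strand, at 137 to 141 and at 101 to 105 bases before the start, and TGTTTTG at 34 to 40 bases before it. The matches do not overlap. The IRS1 window held none of the 3 motifs, nor did those of IGF1R, IGF2R and INSR. A match is a description of the sequence and not a site shown to be used.

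**Figure D3:**
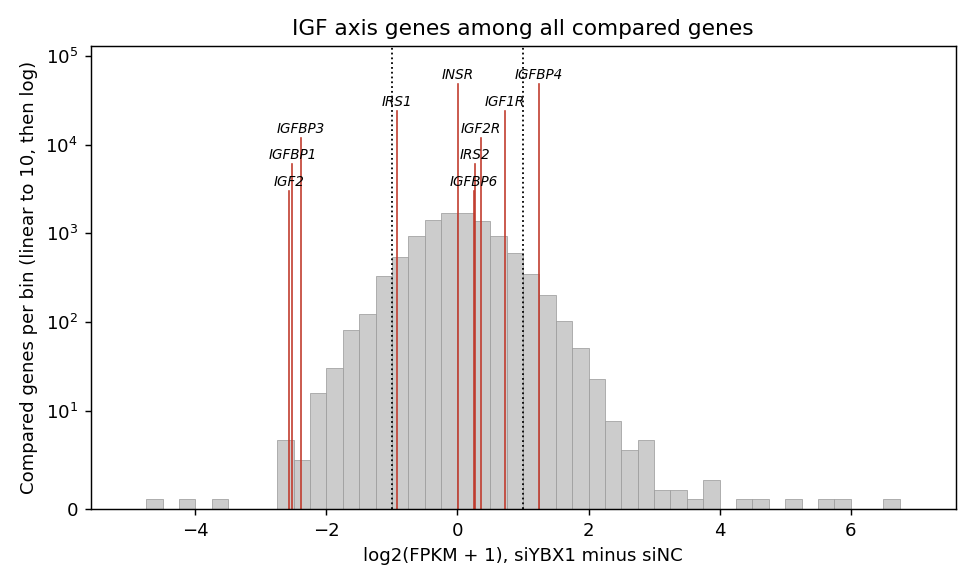
Number of compared genes (10548, linear axis to 10 and logarithmic above) per bin of the difference in log2(FPKM + 1), siYBX1 minus siNC, with the IGF axis genes as lines and the 2-fold thresholds dotted. IGF2, IGFBP1 and IGFBP3 lie in the lower tail between -2.57 and -2.39, IGFBP4 lies above the upper threshold and IRS1 just inside the lower one.

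Ordered by level, the siNC library ran IGFBP4, IGFBP3, IGFBP1, IGF2R, IRS1, IGFBP6, IGF2, IRS2, INSR, IGF1R, and the siYBX1 library ran IGFBP4, IGF2R, IGFBP6, IRS2, IRS1, IGFBP3, IGFBP1, IGF1R, INSR, IGF2. From highest to lowest the levels spanned 34.0-fold in siNC and 188-fold in siYBX1. Without replicates it cannot be said which neighbours in these orders differ beyond error. The genes nearest to the 3 most reduced members, by distance in the plane of both log2(FPKM + 1) values, were OXTR and FBXL14 for IGF2, FGFRL1 and NSRP1 for IGFBP1, and CEP250 and SLC6A6 for IGFBP3. The likeness rests on 1 value per library. OXTR, the oxytocin receptor gene, stood at 1.19 against 9.12 FPKM, the centrosomal gene CEP250 at 5.57 against 29.2 FPKM and the taurine transporter gene SLC6A6 at 5.47 against 26.6 FPKM.

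IGF2 and IGFBP1 are made in quantity by liver, and most hepatocyte markers were listed in the siNC table alone, which gives them no value in siYBX1. Which of the other members liver makes was not examined. Of those other members IGFBP3 was lower, and IGFBP4 was higher, at 155 FPKM in siYBX1 against 64.8 FPKM in siNC. Of 23 hepatocyte markers, 18 were listed only in the siNC table, 4 (TTR, HNF4A, CYP3A4 and CYP2E1) had no row in either, and SERPINA1 was listed in both and went the other way from IGF2, at 40.0 FPKM in siYBX1 against 17.0 FPKM in siNC. The 18 ranged from 0.567 to 12.0 FPKM with a median of 2.20 FPKM, among them FGB at 12.0, ALB at 10.4, APOA2 at 9.92 and the fetal liver gene AFP at 1.003 FPKM. The summed FPKM of the marker list was 85.7 in siNC, of which these 18 gave 68.8, and 40.0 in siYBX1, all from SERPINA1. The median of all 1541 genes listed only in the siNC table was 0.109 FPKM. Only 11 of them reached 5 FPKM, and 6 of these were hepatocyte markers, as were 10 of the 35 that reached 2 FPKM. IGFBP2, another binding protein gene of the liver, was also listed only in the siNC table, at 0.912 FPKM. In such bulk libraries fewer cells of a type and less RNA per cell cannot be told apart. Both groups are labelled as the same breast line, and the source of the hepatocyte marker signal was not tested. Its part in the lower IGF2, IGFBP1 and IGFBP3 was not tested either.

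**Figure D4:**
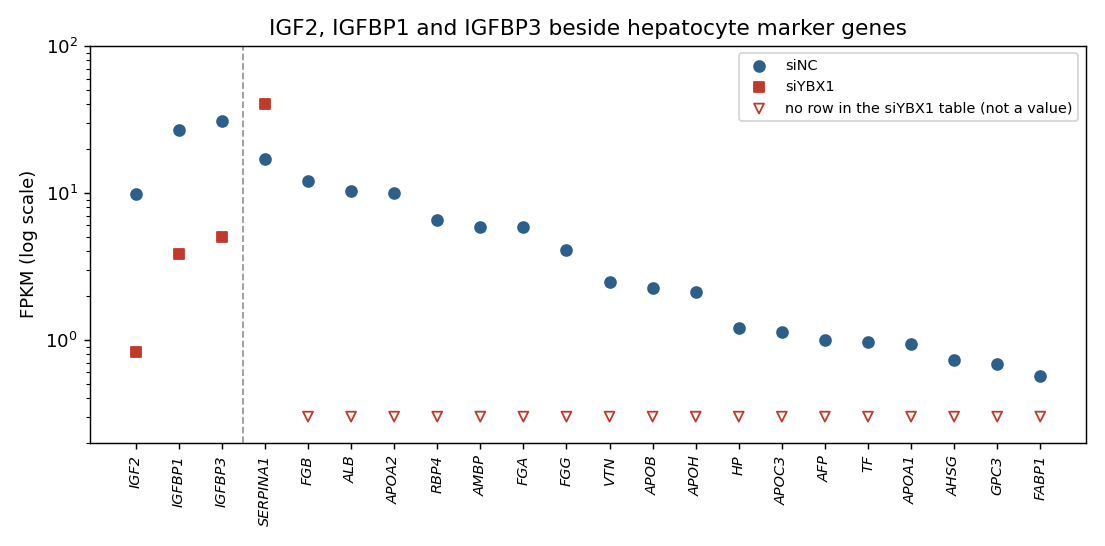
FPKM (log scale) of IGF2, IGFBP1 and IGFBP3 (left of the dashed line) and of the 19 hepatocyte markers with a row in either table, in siNC (circles) and siYBX1 (squares); open triangles mark genes without a row in the siYBX1 table and are not values. All markers but SERPINA1 have a value in siNC only, from 0.567 to 12.0 FPKM.

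Among the remaining ligands and binding proteins, 2 of 10 genes could be compared. IGFBPL1, an IGFBP-like protein gene, was higher, at 9.01 FPKM in siYBX1 against 2.52 FPKM in siNC (log2 difference 1.51, and 0.90 at a pseudocount of 5). IGFBP7 stood at 59.5 against 120 FPKM. Its log2 difference of -0.99 just missed the threshold as deposited and passed it with the libraries scaled to the same total (-1.14). IGFBP5 was listed only in the siNC table, at 0.0665 FPKM, and IGFALS, INSRR and IRS4 had no row in either.

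Of 11 genes for IGFBP proteases, their inhibitors and IGFBP receptors, 6 were compared, and 1 was lower and 0 higher, with a median of 0.21. Over all compared genes 5.62% were lower and 7.20% higher, and 6 genes are too few to set against these shares. The lower one was HTRA1, a secreted serine protease that cleaves IGF binding proteins, at 2.51 against 13.6 FPKM (-2.05). PAPPA, the metalloproteinase that cleaves IGFBP4, was low in both libraries, at 1.02 against 0.646 FPKM, and was left out by the filter. STC1, which can inhibit PAPPA, stood at 14.5 against 10.4 FPKM. TMEM219, a receptor for IGFBP3, stood at 6.41 against 3.75 FPKM and CTSD, a lysosomal protease that IGF2R helps to sort, at 53.0 against 37.1 FPKM.

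Downstream of the receptors, the shares of genes past 2-fold were near those over all compared genes. Over 4 lists of signalling genes, described in turn below, 79 genes were compared, of which 5 (6.33%) were higher and 6 (7.59%) lower, beside the 7.20% and 5.62% over all compared genes. These counts depended on the setting. They were 9 higher and 6 lower at a pseudocount of 0.1, and 2 higher and 7 lower at the same total. At a pseudocount of 5 they were 0 higher and 4 lower. Over all compared genes, the higher and lower counts at these settings were 1097 and 925, 570 and 822, and 314 and 209. Among 20 adaptors and members of the RAS-MAPK arm, 1 was higher and 0 lower, with a median of 0.00 and with 10 positive and 10 negative differences. The higher gene was the small GTPase NRAS, at 54.5 against 25.5 FPKM (1.07), which lay within 2-fold with the libraries scaled to the same total (0.92). SHC1, the adaptor that links the receptors to RAS, stood at 30.8 against 17.6 FPKM (0.77) and the phosphatase PTPN11 at 22.4 against 37.8 FPKM (-0.73).

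Among 24 genes of the PI3K-AKT-mTOR arm, 1 was higher and 1 lower, with a median of -0.09. PIK3CD, a catalytic subunit of PI3-kinase, stood at 8.36 against 3.38 FPKM (1.09, and 0.97 with the same total). MLST8, a subunit of both mTOR complexes, stood at 4.26 against 9.97 FPKM (-1.06, and -0.69 at a pseudocount of 5). The regulatory subunit PIK3R2, at 15.5 against 29.7 FPKM (-0.90), the translational repressor EIF4EBP1, at 67.9 against 121 FPKM (-0.82), and the mTORC1 scaffold RPTOR, at 6.63 against 12.4 FPKM (-0.82), lay within 2-fold as deposited. PIK3R2 passed with the same total (-1.04), and EIF4EBP1 with the length and GC trend removed (-1.11).

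Negative regulators of receptor signalling had 18 of 23 genes compared, with 2 lower, 1 higher and a median of -0.03. DDIT4, an inhibitor of mTORC1, stood at 10.5 against 51.9 FPKM (-2.21). ENPP1, a membrane enzyme that can bind and inhibit the insulin receptor, stood at 4.36 against 15.0 FPKM (-1.58). SESN2, a stress-induced inhibitor of mTORC1, was the higher one, at 5.50 against 2.04 FPKM (1.10, and 0.98 with the same total). The other 5, GRB14, SOCS2, DEPTOR, SESN3 and CISH, were listed only in the siNC table, from 0.164 to 1.62 FPKM.

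FOXO factors, which insulin and IGF signalling keep out of the nucleus, and genes known as their targets had 17 of 20 compared, with 2 higher, 3 lower and a median of 0.16. SOD2, the mitochondrial superoxide dismutase, stood at 5.77 against 1.06 FPKM (1.72) and BCL2L11, the cell death promoter BIM, at 3.92 against 0.699 FPKM (1.53). The transcriptional regulators KLF6, at 9.77 against 28.8 FPKM (-1.47), CITED2, at 24.1 against 59.0 FPKM (-1.26), and FOXO6, at 0.820 against 3.21 FPKM (-1.21), were lower. At a pseudocount of 5 the calls of SOD2 (0.83), BCL2L11 (0.65) and FOXO6 (-0.50) ended, and the list's median was -0.23 once a mean of 5 FPKM was required. FOXO1 and FOXO3 stood at 1.59 and 9.69 FPKM in siYBX1 and at 0.719 and 4.87 FPKM in siNC.

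Of the 12 genes of the IGF2 locus and of IGF2 regulation, 7 were compared and 0 passed 2-fold in either direction, as deposited, with a median of -0.16. Over all compared genes 12.8% passed in either direction, and 7 genes are too few to set against that share. HMGA1, a chromatin protein, came nearest, at 246 against 487 FPKM (-0.98). It passed with the same total (-1.13), by a narrow margin with differences centred on the median, and with the length and GC trend removed (-1.12). Its relative HMGA2, an activator of IGF2 expression, stood at 7.01 against 3.49 FPKM, a ratio of 2.01 in FPKM (0.83, and 1.11 with that trend removed). The IGF2 mRNA-binding protein genes IGF2BP2 and IGF2BP3 stood at 33.1 against 58.1 FPKM and at 7.90 against 5.30 FPKM, and IGF2BP1 had no row in either table. CTCF, which insulates IGF2 from shared enhancers on the maternal allele, stood at 14.1 against 24.6 FPKM (-0.76).

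Genes that serve IGF2R in its other role, the sorting of mannose 6-phosphate tagged enzymes, were compared in full. All 16 lay within 2-fold, from -0.46 to 0.64, with a median of 0.13. Since only 12.8% of all compared genes passed 2-fold either way, this is not read as a trait of the list. M6PR, the smaller mannose 6-phosphate receptor, stood at 7.27 against 6.41 FPKM, and GNPTAB, which makes the tag, at 4.40 against 5.87 FPKM. The largest difference was that of AP1G1, an adaptor of sorting vesicles, at 9.77 against 5.93 FPKM.

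**Figure D5:**
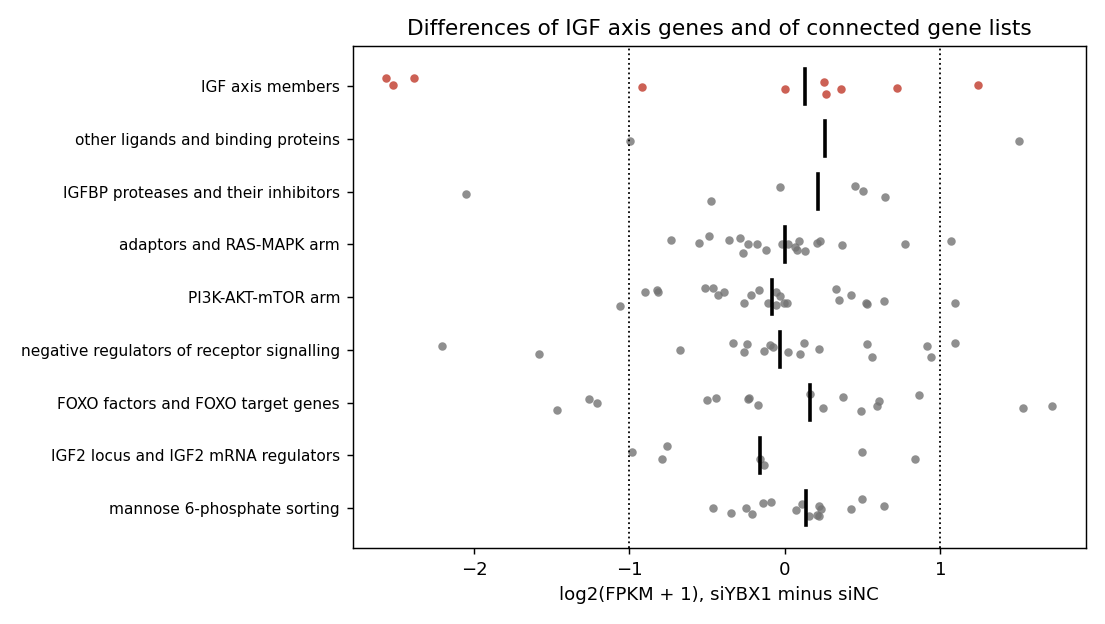
Difference in log2(FPKM + 1), siYBX1 minus siNC, of each compared gene (dots) of the IGF axis and of the connected gene lists, with list medians as bars, the 2-fold thresholds dotted and vertical scatter for display only. List medians lie between -0.16 and 0.26, while IGF2, IGFBP1 and IGFBP3 lie at the left edge.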

How the data were processed

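RNA was extracted with Trizol and sequenced from 1 library per group. The authors deposited FPKM values with a gene identifier and a symbol, per the file headers. Tools listed in the submitters' processing notes are HISAT2 2.1.0, StringTie 1.3.3 and cutadapt 1.17, with GRCh37 as build and no roles stated. How strand was handled, which annotation was used and which genes were listed is not stated in the sources. No counts accompany the FPKM, so no counting interval was computed, and reads shared between similar genes cannot be traced.

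From these values the difference of log2(FPKM + 1) was computed with pandas 2.3.3 and numpy 2.4.6 for genes listed in both tables with a mean of at least 1 FPKM. A gene without a row in a table was not read as 0. The arithmetic was checked on simulated data with known differences. The noise in that simulation was set in advance and not taken from these libraries, so the check says nothing on the error of the calls. The members and all 11 other lists were chosen with earlier results of these data known. All members were named, with up to 5 genes per list by size of difference and the 2 genes nearest to each of the 3 members that differed most. Others named beside them (FOXO1, FOXO3, PAPPA, M6PR, and the named markers) were chosen after their values were seen. The 10 alternatives were other pseudocounts, scalings, centring and filters, absent genes taken as 0, genes listed at 0 left out, and removal of a length and GC trend. That trend was fitted on B-splines with 5 degrees of freedom from the longest coding transcripts of GENCODE 29 (GRCh38), which 99.3% of compared genes had. Upper quartiles were taken over genes listed in both tables. Values of some list members are not reported here.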

Additional observations from a re-analysis of the deposited data

How the results depend on the processing

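The direction and side of the 2-fold threshold of IGF2, IGFBP1, IGFBP3 and IGFBP4 were the same in all 10 alternatives. Alternatives that only change which genes enter, such as the filters, could not alter the differences of these genes. IGF2 ranged from -3.42 to -1.34, IGFBP1 from -2.77 to -1.84, IGFBP3 from -2.58 to -1.83 and IGFBP4 from 1.10 to 1.26. The number of members higher was 1 in each, and the number lower was 3, or 4 where IRS1 passed, at a pseudocount of 0.1 and with the same total. INSR changed sign in 2 alternatives. The members' median, 0.13, was -0.33 at a mean of at least 5 FPKM. IGFBP6, at 0.25, came to 0.00048 with the length and GC trend removed. IGF1R and INSR were not compared at a mean of at least 5 FPKM. Over all genes, 925 were lower at a pseudocount of 0.1, and 314 were higher and 209 lower at one of 5. The median of the hepatocyte markers turned from 1.19 (SERPINA1 alone) to -2.78 with absent genes taken as 0, since 10 of the 18 genes listed only in the siNC table then enter. No library could be left out with 1 per group. No paired analysis was possible because each group had 1 library and no replicate number in the labels. The depth of both libraries is unknown, which limits low values such as that of IGF2 in siYBX1 most.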
